A study of Drosophila melanogaster with 3 samples.

Results

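The genes described here are dpn, Sidpn, Hey, Hesr and cwo, 5 HES genes of Drosophila melanogaster that lie outside the E(spl) complex, with hry, the gene of the profiled protein, set apart. They were taken by name, as 5 of 13945 protein-coding genes on the 6 chromosome arms, and their windows held 8 of the 10233 reproducible summits. Hairy binding was mapped by ChIP-seq, in which DNA recovered with an antibody, here anti-GFP, is sequenced, in 3 biological replicates of whole wandering larvae of the last instar, males and females pooled. All replicates came from 1 transgenic line of strain 15T-GFP that expresses Hairy, the product of h (now hry), with a C-terminal GFP tag, and there was no second genotype or treatment. Chromatin of all larval tissues was mixed, so a site bound in few cells and a site bound weakly in many cannot be told apart. The control library named by the labels was not analysed here, so binding of the tagged protein cannot be told apart from signal that arises without the tag.

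HES proteins are basic helix-loop-helix repressors with an Orange domain, and most of them act with the corepressor Groucho. Many HES genes are targets of Notch signalling, and HES proteins of vertebrates are known for repressing their own genes. Deadpan, the product of dpn, keeps neural stem cells (neuroblasts) self-renewing and counts autosomes in sex determination. Clockwork orange, the product of cwo, represses E-box genes of the circadian clock. Hey acts in neurons that receive a Notch signal. Sidpn is a close relative of dpn, and Hesr is a HES-related gene for which no role is given here.

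The summits that lay in introns or upstream of cwo and Sidpn are shown as 201 bases of dm6 centred on the summit, on the plus strand, which is the strand of both genes. They are shown because the strongest of them holds 2 sites of 1 class. Capitals mark matches, on either strand, to the sites known for HES repressors and their partners: the class C site CACGCG, the N-box CACNAG, and any E-box CANNTG, which takes in class B (CACGTG) and class A (CAGCTG).
cwo intron, chr3R:10390950-10391150: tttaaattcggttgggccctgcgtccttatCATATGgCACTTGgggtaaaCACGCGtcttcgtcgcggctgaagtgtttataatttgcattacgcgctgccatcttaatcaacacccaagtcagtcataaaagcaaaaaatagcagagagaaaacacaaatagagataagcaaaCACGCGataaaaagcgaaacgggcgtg
cwo intron, chr3R:10392014-10392214: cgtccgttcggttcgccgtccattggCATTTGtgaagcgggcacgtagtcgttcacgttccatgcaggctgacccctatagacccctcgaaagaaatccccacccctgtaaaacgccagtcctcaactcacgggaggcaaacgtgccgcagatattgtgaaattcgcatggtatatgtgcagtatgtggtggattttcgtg
Sidpn far upstream, chr2L:19024539-19024739: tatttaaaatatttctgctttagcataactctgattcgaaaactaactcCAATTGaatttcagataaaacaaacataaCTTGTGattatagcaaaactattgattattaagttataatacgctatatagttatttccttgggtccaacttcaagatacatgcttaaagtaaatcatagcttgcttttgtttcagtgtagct
Sidpn near upstream, chr2L:19026932-19027132: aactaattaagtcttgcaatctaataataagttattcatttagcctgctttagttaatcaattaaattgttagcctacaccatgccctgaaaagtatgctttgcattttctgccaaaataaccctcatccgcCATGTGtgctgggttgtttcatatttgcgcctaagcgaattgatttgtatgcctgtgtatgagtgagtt
The upper cwo sequence holds CACGCG on either side of its summit and 2 E-boxes. The lower cwo sequence and the near Sidpn sequence hold 1 E-box each. The far Sidpn sequence holds 1 E-box and 1 N-box, the N-box on the minus strand.

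Peaks were taken from 5 deposited lists. Each replicate has a list of 30000 peaks, the pooled list holds 30000 peaks called on all replicates together, and the reproducible list holds the 10233 peaks that passed the irreproducible discovery rate procedure (IDR), which keeps peaks ranked alike between replicates. Every peak carries the authors' signal value, a score without a stated scale, so peaks are compared by rank within a list, with rank 1 the strongest. A peak here is any entry of a list, and the pooled list is labelled as peaks and background for input to IDR. The 10233 strongest peaks of a replicate are called its top list. The lists give no read totals, so sequencing depth is unknown. The window of a gene ran from 5 kb upstream of its start to its end.

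Binding was found in the windows of dpn, Sidpn, Hey and cwo, and no reproducible peak lay at Hesr. The reproducible list held 8 summits in these windows, with 4 at cwo, 2 at Sidpn, 1 at dpn and 1 at Hey. A window with at least 1 reproducible summit was found for 4 of the 5 genes, against 49.5% of all coding genes, and with so few genes that difference says little about the family. In each replicate's top list the same 4 genes had a summit and Hesr had none. The top lists of replicates 1, 2 and 3 gave 5, 4 and 5 summits at cwo, and in every one of them 2 at Sidpn, 1 at dpn and 1 at Hey. The median coding gene had 0 summits in a median window of 7.17 kb, 7.85% had at least the 4 of cwo, and 11.5% had a window at least as long as the 17.5 kb of cwo.

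**Figure D1:**
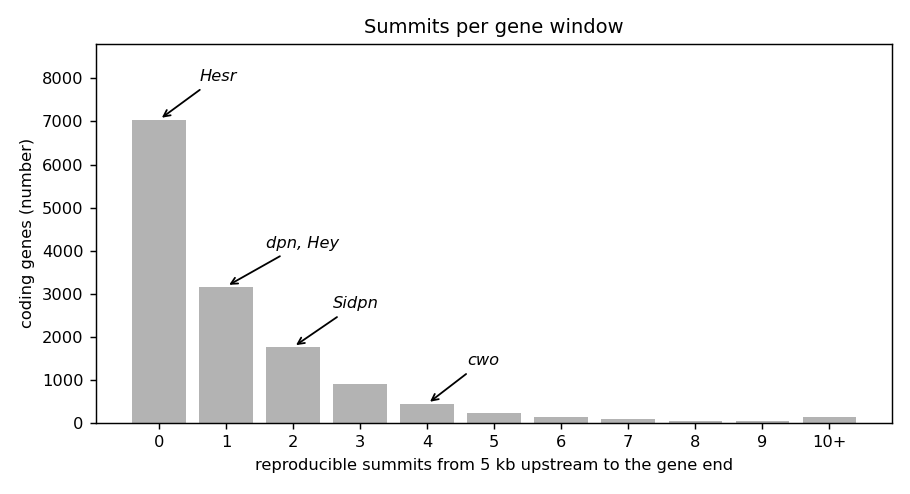
Number of coding genes (vertical axis) by the number of reproducible summits from 5 kb upstream to the gene end (horizontal axis). The arrows mark cwo in the bar of 4 summits, Sidpn in that of 2, dpn and Hey in that of 1, and Hesr among the genes with 0.

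The strongest peak of the 5 genes lay inside dpn (FBgn0010109, 2R 8228971 to 8232330, minus strand). Its summit at 8230871 was in intron 2, 1459 bp downstream of the start, and the peak ran from 8230688 to 8231047, with signal value 738.6 and rank 723 of the reproducible list. The replicates ranked it 861, 626 and 871, with a mean rank of 786 ± 139 (SD, n = 3). All 3 replicates thus placed it in the top 1000, and their own summits lay within 33 bp of each other. The signal values in those lists were 277.8, 325.8 and 135.3, on scales that differ between lists. The annotation also puts sisRNA:4, a stable RNA made from this intron, over the summit, 194 bp from that RNA's start.

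The promoter of dpn had no reproducible summit. The pooled list held peaks 68 bp and 295 bp upstream of the start, with ranks 15583 and 21272, outside the reproducible list. Replicate 1 had a peak 74 bp upstream with rank 16093, replicate 2 had one 6 bp inside the gene with rank 12726, and replicate 3 had none within 1 kb of the start. Replicates 1 and 2 also had the peak 295 bp upstream, with ranks of 18999 and 19359. The intron peak therefore stood alone among strong peaks of the window, as the map of replicate peaks by gene shows. Just outside the window, 5062 bp upstream, lay a stronger peak at 8237211 to 8237574 with a signal value of 912.8 and rank 482. It sits 121 bp downstream of the start of pnut, which encodes a septin.

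At cwo (FBgn0259938, 3R 10388258 to 10400752, plus strand) binding was spread over the first 4 kb of the transcribed region. The gene has 3 annotated transcripts with 1 start, and its first intron is long. The strongest summit, at 10391050, lay in that intron 2792 bp downstream of the start, and its peak spanned 10390872 to 10391201, with signal value 515.4 and rank 1374. Replicates 1, 2 and 3 ranked it 1361, 1353 and 1539, a mean of 1418 ± 105 (SD, n = 3), and placed its summit within 8 bp. It was the steadiest of the 8 summits, with the lowest ratio between its highest and lowest rank, 1.14. This is the peak whose sequence holds a pair of CACGCG sites.

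The other 3 reproducible summits at cwo were weaker and less steady. One lay in the 5' UTR 714 bp downstream of the start, with a signal value of 258.7 and replicate ranks of 2907, 5443 and 4461. Another lay 44 bp downstream of the start, also in the 5' UTR, with a signal value of 137.4 and replicate ranks of 6930, 9817 and 4511. Of these, the summit 714 bp in ranked above the one at the start in every replicate, although in replicate 3 by little. The last lay in the intron 3856 bp downstream, with a signal value of 124.0 and replicate ranks of 6130, 11108 and 10848. It was in the top list of replicate 1 only, and it was the one member summit missing from any top list. The summit at the start was placed within 4 bp by all replicates, the closest agreement in position among the 8.

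The replicates also shared peaks at cwo that the reproducible list does not hold. One lay in the intron, with summits 6156, 6084 and 6151 bp downstream of the start and ranks of 10902, 17464 and 4828. The pooled list had no peak there, although replicate 3 ranked it above the reproducible summit 3856 bp in. The −log10 q-values of this peak were 2.85, 1.31 and 4.24 in replicates 1, 2 and 3. Another lay upstream, at 3498, 3431 and 3562 bp from the start with ranks of 10030, 23668 and 7953, and was in the pooled list at rank 12027. The −log10 q-values of the upstream peak were 3.02, 0.675 and 4.24. Replicates 1, 2 and 3 also had intron peaks 4696, 4817 and 4460 bp downstream, with ranks of 12701, 24529 and 22922. The last 2 of these summits lay more than 250 bp apart. Replicate 3 had another peak 4996 bp downstream with rank 24571, so a single shared peak is not shown. None of these was in a top list, and the pooled list had a peak 4797 bp downstream with rank 18446. Counting all entries, weak ones included, the window held 11, 10 and 10 summits in the full replicate lists. Their mean was 10.3 ± 0.58 (SD, n = 3), against 4 in the reproducible list. Among these entries the −log10 q-value fell to 0.319 in replicate 1, 0.611 in replicate 2 and 0.459 in replicate 3. The weak entries cannot be told apart from background.

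**Figure D2:**
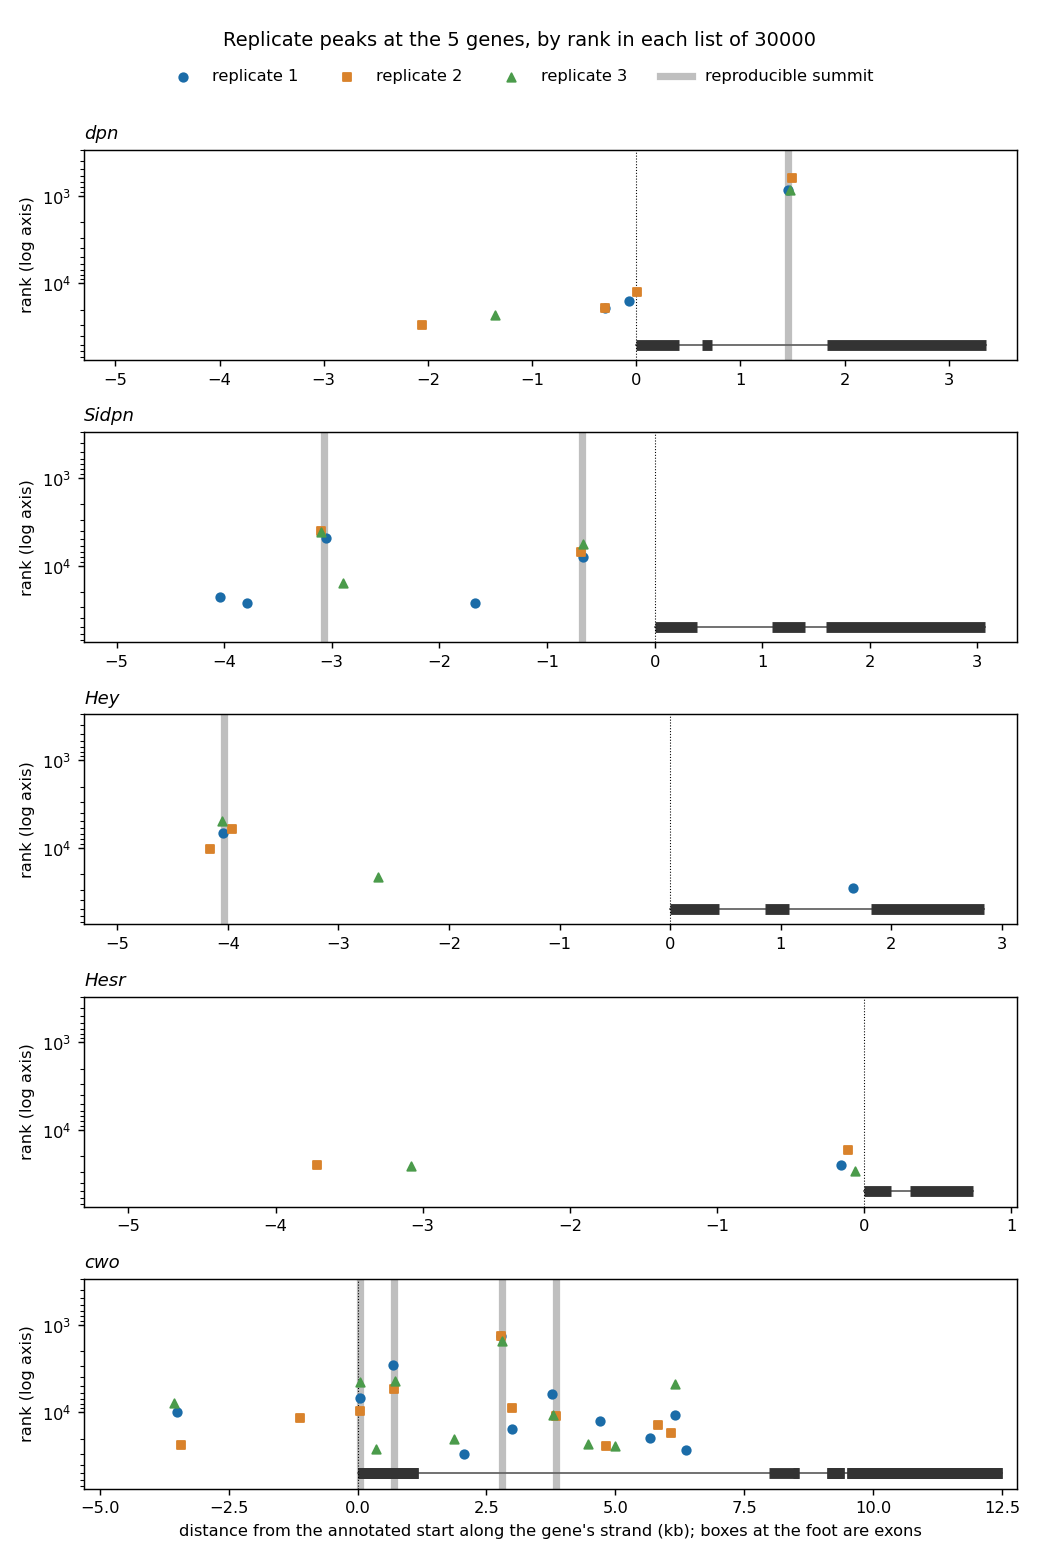
Peaks of the 3 full replicate lists in each gene's window, by distance from the annotated start in kb (horizontal axis) and rank in the list on a log axis with strong peaks at the top (vertical axis). Grey bars mark reproducible summits and black boxes exons, and the strongest peak lies in an intron at dpn and cwo and upstream at Sidpn and Hey, while Hesr has none ranked above 16785.

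At Sidpn (FBgn0032741, 2L 19027710 to 19030780, plus strand) both reproducible summits lay upstream and none lay in the gene. The stronger, at 19024639, was 3071 bp upstream of the start and its peak covered 19024617 to 19024787, with signal value 241.6 and rank 4110. The replicates ranked it 4859, 3983 and 4126, a mean of 4323 ± 470 (SD, n = 3). It lay 199 bp upstream of the start of the noncoding gene lncRNA:CR43700, which is nearer to it than Sidpn, and the nearest coding start was that of CG15172, 1621 bp away. The weaker, 678 bp upstream, had a signal value of 164.6, rank 6518 and replicate ranks of 7903, 6936 and 5741, a mean of 6860 ± 1083 (SD, n = 3). Sidpn was the nearest coding gene to this summit, and it ranked below the far one in all 3 replicates.

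Peaks crowded around Sidpn more than around the other 4 genes. Within 20 kb on either side of its start lay 10 reproducible summits, against a median of 4 over coding genes, and 7.57% of coding genes had at least as many. The replicate top lists held 9, 8 and 11 there, a mean of 9.33 ± 1.53 (SD, n = 3). The same span held 5 reproducible summits at dpn, 6 at Hey, 5 at cwo and 0 at Hesr. Just beyond the Sidpn window, 5673 bp upstream of its start, a peak with a signal value of 518.1 and rank 1363 lay 380 bp upstream of the start of CG15172. It was stronger than both summits inside the window in the reproducible list and in each replicate, with replicate ranks of 1494, 2282 and 924.

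Hey (FBgn0027788, 2R 7995438 to 7998278, minus strand) had 1 reproducible summit in its window, but that summit lay at the promoter of another gene. It was at 8002312, 4034 bp upstream of the Hey start and 192 bp upstream of the start of CG11191, a gene between the peak and Hey. Its peak, from 8002097 to 8002526, had a signal value of 185.3 and rank 5672. The replicates ranked it 6712, 6161 and 5009, a mean of 5961 ± 869 (SD, n = 3). Replicate 2 divided the region into a pair of peaks, with ranks of 6161 and 10408, whose summits lay on either side of the reproducible one. Over the gene itself the only peak in any full list was one of replicate 1 in an intron, with rank 28839 of 30000.

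Hesr (FBgn0030899, X 18204403 to 18205144, minus strand) is the shortest of the 5 genes, with 742 bp, and lay in a stretch without reproducible peaks. Its window overlaps Frq2, which encodes a frequenin, and Him, an inhibitor of muscle differentiation. No reproducible summit lay within 20 kb on either side of its start, and the same was true of each replicate's top list. Such emptiness was not rare, since 14.4% of coding genes had none in that span. Each full replicate list did hold a weak peak just upstream of the start. Its summits were 157, 110 and 59 bp upstream with ranks of 25260, 16785 and 29264, and the pooled list gave it a signal value of 47.6, rank 18937 and a −log10 q-value of 1.17. The lowest signal value in the reproducible list was 105.2, more than that pooled value. The −log10 q-values of the 3 replicate peaks were 0.535, 1.43 and 0.346. The control library itself was not analysed here, so these weak peaks cannot be told apart from background.

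By their strongest peak, the 5 genes stood in the same order in every replicate: dpn, cwo, Sidpn, Hey and Hesr. The replicate ranks were 626 to 871 for dpn, 1353 to 1539 for cwo, 3983 to 4859 for Sidpn, 5009 to 6712 for Hey and 16785 to 25488 for Hesr. No range overlapped the next, and Sidpn and Hey came closest. The places of cwo, Sidpn, Hey and Hesr depend on the window of 5 kb upstream. A peak just outside it, 5673 bp upstream of Sidpn, had replicate ranks of 1494, 2282 and 924, which overlap those of cwo. The Hey ranks come from the peak 4034 bp upstream, at the promoter of CG11191. With 1 kb upstream, Hey would keep only the replicate 1 peak in its intron, of rank 28839. The Hesr peaks 157, 110 and 59 bp upstream, with ranks of 25260, 16785 and 29264, would remain, which puts Hesr above Hey. For Hesr the strongest peak was the one at the promoter in replicates 1 and 2 and one 3077 bp upstream in replicate 3. With 3 replicates of 1 group, this order is a description and was not tested.

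Set against other bound genes, dpn and cwo were on the strong side and Sidpn and Hey on the weak side. Of the 6907 coding genes with a reproducible summit in their window, 16.5% had a peak at least as strong as that of dpn, 28.2% as that of cwo, 62.8% as that of Sidpn and 75.5% as that of Hey. The median strongest signal value over these genes was 305.8. These shares take no account of window length, and a longer window has more room for a strong peak. The window was 17.5 kb for cwo and 7.84 to 8.36 kb for dpn, Sidpn and Hey. The peaks next to that of dpn in strength lay nearest to the starts of CG12093 (signal value 738.7) and CG43867 (738.2), and those next to cwo nearest to IntS6 (515.8), a subunit gene of the Integrator complex, and CG15461 (515.3). For Sidpn the neighbours were Grx1 (241.6), a glutaredoxin gene, and tmod (241.5), the tropomodulin gene. For Hey they were Indy (185.3), which encodes a citrate transporter, and CG15468 (185.3). Likeness here is the difference in signal value within the reproducible list alone.

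**Figure D3:**
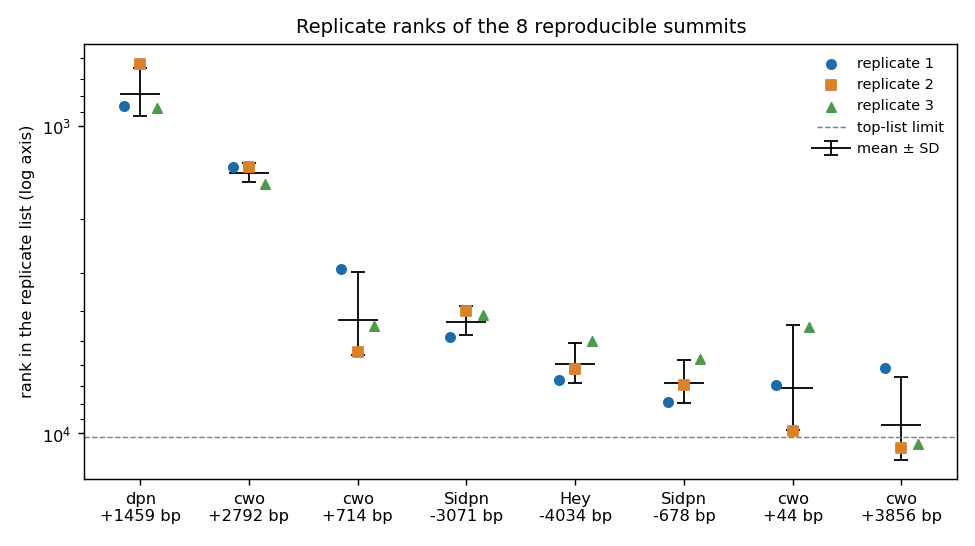
Rank of each of the 8 reproducible summits in the replicate lists (vertical axis, log, strong peaks at the top), with the mean and SD over 3 replicates as black bars and the summits ordered by rank in the reproducible list. The dpn summit and the cwo summit at 2792 bp stand above the rest, and the cwo summit at 44 bp spreads widest on this axis, from 4511 to 9817.

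Agreement between replicates at these genes was close to that over the whole list. The ratio of highest to lowest replicate rank had a median of 1.38 over the 8 summits and 1.58 over the 9764 reproducible summits found inside a peak of all replicates. It reached 2 or more for 1 of the 8, the cwo summit at the start with 2.18, against 24.3% of all. The replicate summits of 1 site spanned a median of 38.5 bp here, from 4 to 92 bp, and 49 bp over all. These shares describe the deposited lists, and the reproducible list was itself derived by IDR. Which lists IDR compared is not given, and 95.4% of the reproducible summits lay inside a peak of all 3 replicates.

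Most summits at these genes lay away from promoters, as did most summits of the whole list. Of the 8 summits, 3 lay in introns, 2 in the 5' UTR of cwo and 3 upstream of the gene. Only the cwo summit at the start was within 500 bp of the member's own start. Counting the start of any coding gene, the Hey summit near CG11191 joined it, which made 2 of 8, or 25.0%, against 39.7% of all reproducible summits. With 8 summits that difference says little. GC content within 100 bp ran from 27.4% at the Hey summit to 53.2% at the cwo summit 3856 bp in, against 38.4% ± 8.18 (SD over 10233 summits).

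A class A, B or C site or an N-box lay within 100 bp on either side of 3 of the 8 summits, or 37.5%, against 32.7% of all 10233, so the share was near that of the whole list. CACGCG was found at 1 of the 8, the strongest cwo summit, against 6.24% of all reproducible summits. That summit held 2 such sites, centred 47.5 bp upstream and 76.5 bp downstream of it, and 53 of 10233 summits, or 0.518%, held 2 or more. Repeated sites were counted over the whole list for CACGCG alone and not for the other motifs. The N-box CACNAG was at 2 of the 8, the far Sidpn summit and the cwo summit at the start, against 20.3% of all. The class B site was at 0 of the 8, against 2.11%, and the class A site at 0 of the 8, against 9.47%. CANNTG was at 5 of the 8, the dpn summit among them, against 61.8% of all, close to the share of the whole list. Both strands were searched. The class A and class B sites are also E-boxes, so these counts overlap.

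The dpn summit held 2 CANNTG sites, centred 58.5 bp downstream and 27.5 bp upstream of it on the gene's strand, and none of the named sites. The Hey summit held none of the motifs searched. In the 250 bp upstream of the annotated starts, the N-box occurred 2 times at dpn, 1 time at Sidpn and 1 time at cwo, and CACGCG 1 time at Hey, where no peak was called over the promoter. These upstream windows held the N-box at 24.8% of 19607 coding start sites and CACGCG at 5.06%. The Su(H) forms GTGGGAA and GTGAGAA, through which Notch signalling acts, were at 0 of the 8 summits, against 2.13% and 2.57% of all. A match or its absence describes these letters in these windows alone.

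Among the other 8 HES genes, 7 had a reproducible summit in the same kind of window, so 11 of the 13 HES genes did, against 49.5% of all coding genes. Their windows are short, with a median of 5.98 kb, and neighbours in the E(spl) complex share peaks. The strongest peak of hry itself, 38 bp upstream of its start, had a signal value of 2191 and rank 58. The strongest peak in the window of E(spl)mbeta-HLH (1386) had its nearest coding start at E(spl)malpha-BFM. That of E(spl)mdelta-HLH (807.9), nearest to the start of CG43116, was also the strongest in the window of E(spl)mgamma-HLH. The E(spl)m7-HLH peak (740.4), also the strongest for E(spl)m8-HLH, differed from that of dpn (738.6) by 5 ranks in the reproducible list, 718 and 723. Its replicate ranks were 859, 707 and 7156, so replicate 3 placed dpn far above it. E(spl)m3-HLH (487.1) ranked below cwo in the reproducible list, but its replicate ranks of 2207, 1253 and 789 put it above cwo in replicates 2 and 3, so the order of these genes was not stable. E(spl)m5-HLH, like Hesr, had no summit.

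**Figure D4:**
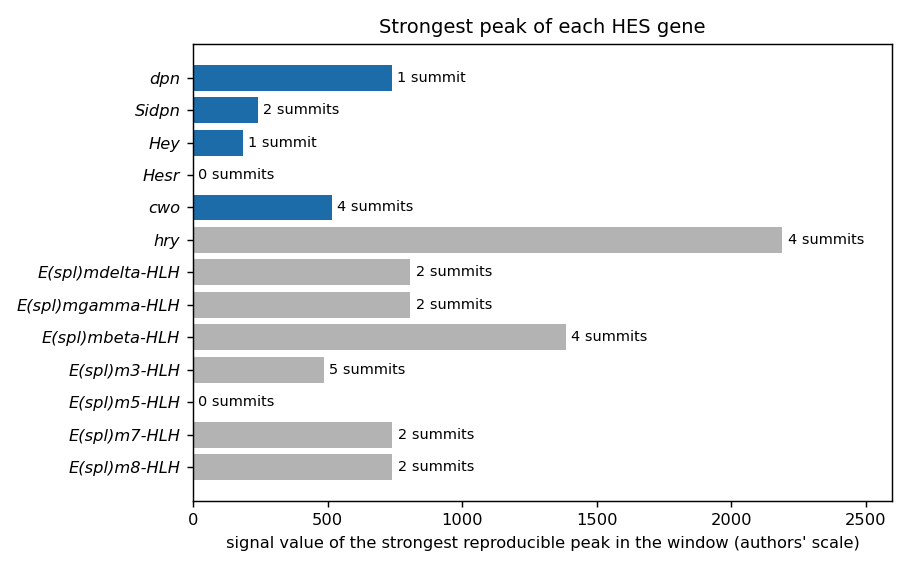
Signal value of the strongest reproducible peak in the window of each of the 13 HES genes (horizontal axis, authors' scale), with dpn, Sidpn, Hey, Hesr and cwo in blue above hry and the 7 genes of the E(spl) complex in grey and the number of summits beside each bar. The bar of hry at 2191 is far above that of dpn at 738.6, and E(spl)mdelta-HLH and E(spl)mgamma-HLH share a peak, as do E(spl)m7-HLH and E(spl)m8-HLH.

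Genes that work with these repressors were counted in the same way, against the 49.5% of all coding genes with a summit. All 3 corepressor genes had a reproducible summit, gro (signal value 1299), CtBP (477.8) and Sirt1 (286.4), the last with its peak nearest to the start of DnaJ-H and its summit inside no peak of replicate 2. Of 6 clock genes, 3 did, a share at that of all coding genes, and these were vri (1599, with 15 summits), cyc (443.5) and Pdp1 (402.3). The vri and Pdp1 proteins repress and activate transcription of Clk. Clk, per and tim, the first encoding the partner of cyc and the others the repressors of that pair, had no summit. The cyc peak lay 4 bp from the start of Fibp and not at the cyc promoter, and its summit was inside a peak of replicate 3 only.

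Of 10 neural stem cell genes, 7 had a summit, led by grh (1205), brat (979.6) and numb (834.3), with klu, insc, pros and erm after them, and the insc peak lay nearest to the start of sktl. The neuroblast factors ase and wor and the adaptor gene mira had none. Their windows of 7.28 to 8.32 kb were slightly longer than the median of 7.17 kb over coding genes. Of 7 sex determination genes, 4 had one, Sxl (510.7), emc (357.3), sisA (310.4, nearest to the start of Gapvd1) and da, and sc, upd1 and run did not. Of 6 core Notch genes, 5 had one, mam (1652, nearest to the start of CG18371), N (838.1, nearest to that of CG18508), Delta (500.9), Ser and Su(H), and H did not. Over all 6 lists, 29 of the 40 genes had a summit, against 49.5% of all coding genes. These 40 take in the other 8 HES genes, 7 of them with a summit and some sharing peaks. The list medians of summits per window ran from 1 for clock genes to 3 for corepressors, against 0 over all coding genes, and the list medians of window length ran from 5.98 to 28.4 kb, against 7.17 kb, and longer windows have more room for a summit.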

How the data were processed

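ChIP-seq peak lists of 3 biological replicates of 1 group were used, on build dm6 per the deposited notes. The authors called each replicate list and the pooled list against a control alignment, and derived the reproducible list from them by IDR, per the deposited notes. Which aligner and caller were run, and at what IDR cutoff, is not given in the sources used here. The authors deposited a signal value per peak, a score without a stated scale, and a −log10 q-value. The signal value was used for ranks, for setting peaks side by side and for the cut at the list's median. The −log10 q-value was used in 1 alternative ranking and is given for some weak peaks. The dm3 lists were not used here.

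A summit is the peak start plus the authors' offset, 1-based. Genes came from Ensembl release 115, and bases from the RefSeq genome of the same assembly. A replicate peak matched a reproducible summit it held, and the strongest was taken. Counts, ranks and site searches used Python 3.11.15 with pandas 2.3.3 and numpy 2.4.6. The window counts and the site search were checked on simulated data, and the ranks were not. No test was run, since there is 1 group. Alternatives covered the window, gene assignment, list, replicates, ranking and site distance. Genes named are the 5 members with every reproducible summit, members of the related lists, overlapping genes, and the genes nearest to peaks ranked next to each strongest peak. The members and lists were chosen with earlier results of these data known. In the lists, 2 symbols were updated.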

Additional observations from a re-analysis of the deposited data

How the results depend on the processing

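The 4 bound genes became 3 with 1 kb upstream, with the nearest coding start alone, and above the list's median signal value, where Hey had no summit, and stayed 4 with 10 kb upstream, in all 3 top lists and without any 1 replicate. The 8 summits became 4 above the median signal value, with 2 at cwo, 1 at dpn and 1 at Sidpn. They were 6 with 1 kb upstream or the nearest start, 12 with 10 kb upstream, and 7 in all 3 top lists and without any 1 replicate. With 10 kb upstream, dpn and cwo each had 4 summits and Sidpn had 3. Coding genes with a summit ranged from 33.1% to 60.6% over these settings. Mean replicate ranks of the strongest peaks did not change when summits were matched within 250 bp. Without any 1 replicate they ran from 743.5 to 866 for dpn, 1357 to 1450 for cwo, 4054.5 to 4492.5 for Sidpn and 5585 to 6436.5 for Hey, and with 3 replicates such a mean cannot move by 1 SD. Ranked by q-value, the mean became 4603 for dpn, cwo and Hey alike, and also for Sidpn, because all these peaks are tied at the highest q-value of each replicate list. The 3 summits with a class A, B or C site or an N-box within 100 bp (37.5%, against 32.7% of all summits) became 5 within 200 bp (62.5%, against 57.7%) and 2 within 50 bp (25.0%, against 17.7%). Top-list summits of replicates 1 and 3 gave 5 of 9 each (55.6%, against 33.1% and 32.6% of their top lists), and those of replicate 2 gave 4 of 8 (against 33.2%). For the 40 related genes, alternatives added after seeing the data gave 25 to 34 with a summit. No paired analysis was possible because there is 1 group. Read depth is unknown, so no bound on a missing peak can be given.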
